A study of Mus musculus with 36 samples.

Results

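The genes described are 38 listed genes of the cell cycle and of DNA replication, read in the diaphragm, the main breathing muscle, of control and mdx mice. Members were taken as all probe sets of the array whose annotation gave a listed symbol. This found 35 of the 38 genes and 49 probe sets, out of 8251 genes and 12422 probe sets on the array. Cyclin B1 (Ccnb1), the checkpoint kinase Bub1b and thymidylate synthase (Tyms) had no probe set of their own. After a filter on dim probe sets, 42 member probe sets of 33 genes were tested among 9291. The dim members, given only as levels, were the 3 probe sets of the checkpoint kinase Bub1, the helicase subunit Mcm6 and further probe sets of Cdk2, Rrm1 and Stmn1.

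Total RNA of diaphragm was hybridised to 1-colour Affymetrix arrays, 3 arrays for each of 12 groups and 36 in all. The groups were control and mdx mice at 7, 14, 23, 28, 56 and 112 days of age. The mdx mouse carries a mutation of Dmd, the dystrophin gene, in all its cells, and its muscle fibres lack dystrophin and go through rounds of damage and repair. The labels give no strain, sex or pooling of animals and do not say whether the arrays of a group are separate animals. The p-values therefore refer to array-to-array spread, part or all of which may be technical.

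A cell that divides passes from G1, where D-type cyclins with Cdk4 and cyclin E with Cdk2 commit it to division, into S phase, where the Mcm helicase opens the DNA and copying enzymes follow, and then into mitosis, which is driven by cyclins A and B with Cdk1. Cdkn1a (p21) and Cdkn2c (p18) hold these kinases back, and p21 is also a mark of muscle cells that leave the cycle. In muscle, the dividing cells are the myoblasts and satellite cells that build and repair fibres together with fibroblasts, endothelium and blood-borne cells, since the fibres themselves do not divide.

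Signals are linear intensities as deposited, already scaled alike on each array, with a median per array between 450.6 and 723.4, and differences are on the scale of log2(signal + 32). Replicate arrays correlated at 0.884 to 0.975 over log2 values. The probe set of Dmd, which checks the labels, read lower in mdx by 1.01 ± 0.12 on the log2 scale over the mean of the 6 ages (limma, adjusted p = 2.22e-07). At single ages it passed as lower at 23, 56 and 112 days, and not at 7, 14 and 28 days (adjusted p = 0.577, 0.13 and 0.337). Its arrays overlapped between genotypes at 7 and 112 days. On 9 arrays the liver transcript albumin read above 10000: 6 in controls (replicate 3 at 7 days, replicates 2 and 3 at 14 days, replicate 1 at 56 days, replicates 2 and 3 at 112 days) and 3 in mdx (replicate 1 at 7 days, replicate 3 at 14 days, replicate 2 at 112 days). Where those arrays were left out, single calls were checked for mdx against control at an age and for controls from 7 to 28 days. Calls lost in this way are named beside the result. For the other comparisons, among them the mean of ages, only the counts were checked.

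In control diaphragm most of the tested cell cycle genes fell between 7 and 28 days, with members of every role among them. Of 42 member probe sets, 24 fell and 0 rose at an adjusted p under 0.05 (limma, Benjamini-Hochberg over all probe sets tested), a share of 57.1% beside 8.07% of all tested probe sets that fell and 6.59% that rose. Taking 1 probe set per gene, the brightest, 22 of 33 genes fell and the median difference was -1.07 on the log2 scale, against 0.02 over all probe sets. The median was -0.77 for the 8 tested G1 genes, -1.08 for the 5 helicase subunits, -1.07 for the 5 genes of the replication fork and nucleotide supply, -1.55 for the 5 mitotic cyclin and Cdk1 genes, -1.51 for the 7 spindle and segregation genes and -1.82 for Mki67, Top2a and Stmn1. In the last of these groups Mki67 was counted by its brightest probe set, 161931_r_at, which did not fall (0.43). Every one of the 5 tested mitotic cyclin and Cdk1 genes fell. Markers of several cell types fell over the same span in controls: 5 of 7 of regenerating fibres (median -1.81), 3 of 6 of muscle stem cells and myoblasts, 3 of 9 of fibroblasts and 3 of 6 of neutrophil granules (median -1.54). The myoblast sum, the summed signal of those markers on an array, went from 14844 to 16966 at 7 days to 9351 to 11746 at 28 days. Their part in the fall was not tested. Diaphragm was read as bulk tissue, so fewer cells of a type and less RNA per cell cannot be told apart.

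After 28 days the median control level was lowest at 56 days. Relative to controls at 7 days, the median log2 level of the 33 genes was -1.02 ± 0.03 (SD, n = 3) at 28 days, -1.33 ± 0.09 at 56 days and -1.11 ± 0.33 at 112 days. For the mitotic cyclin and Cdk1 genes it was -1.66, -2.33 and -1.30. The step from 28 to 56 days was not tested. From 28 to 112 days 4 probe sets fell (9.52%) and 1 rose (2.38%), beside 11.5% and 9.49% of all tested probe sets, so the members' shares lay below those of the array. Cyclin D2, cyclin D3, Cdk1 and Cks1b fell, and 1 of the 3 probe sets of Plk1 rose. This count was 12 without control replicate 3 at 112 days and 9 without the albumin-rich arrays.

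In mdx diaphragm the same early step was shallower in the median. From 7 to 28 days 4 member probe sets fell (9.52%) and 1 rose (2.38%), beside 3.68% and 5.64% of all tested probe sets, and the median over genes was -0.52. Cyclin D1, Cdk4, cyclin B2 and the checkpoint protein Mad2l1 fell and p21 rose. The count of 5 called probe sets became 2 without mdx replicate 1 or 2 at 7 days and 1 without mdx replicate 1 or 2 at 28 days. From 28 to 112 days 6 fell (14.3%) and 1 rose (2.38%), beside 7.57% and 8.09%. Those that fell were cyclin D2, cyclin D3, Cdk2, Cdk1, Cks1b and Stmn1, and 1 of the 2 probe sets of Mki67 rose. The count of 7 became 4 without mdx replicate 1 at 28 days and 3 without mdx replicate 3 at 112 days.

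**Figure D1:**
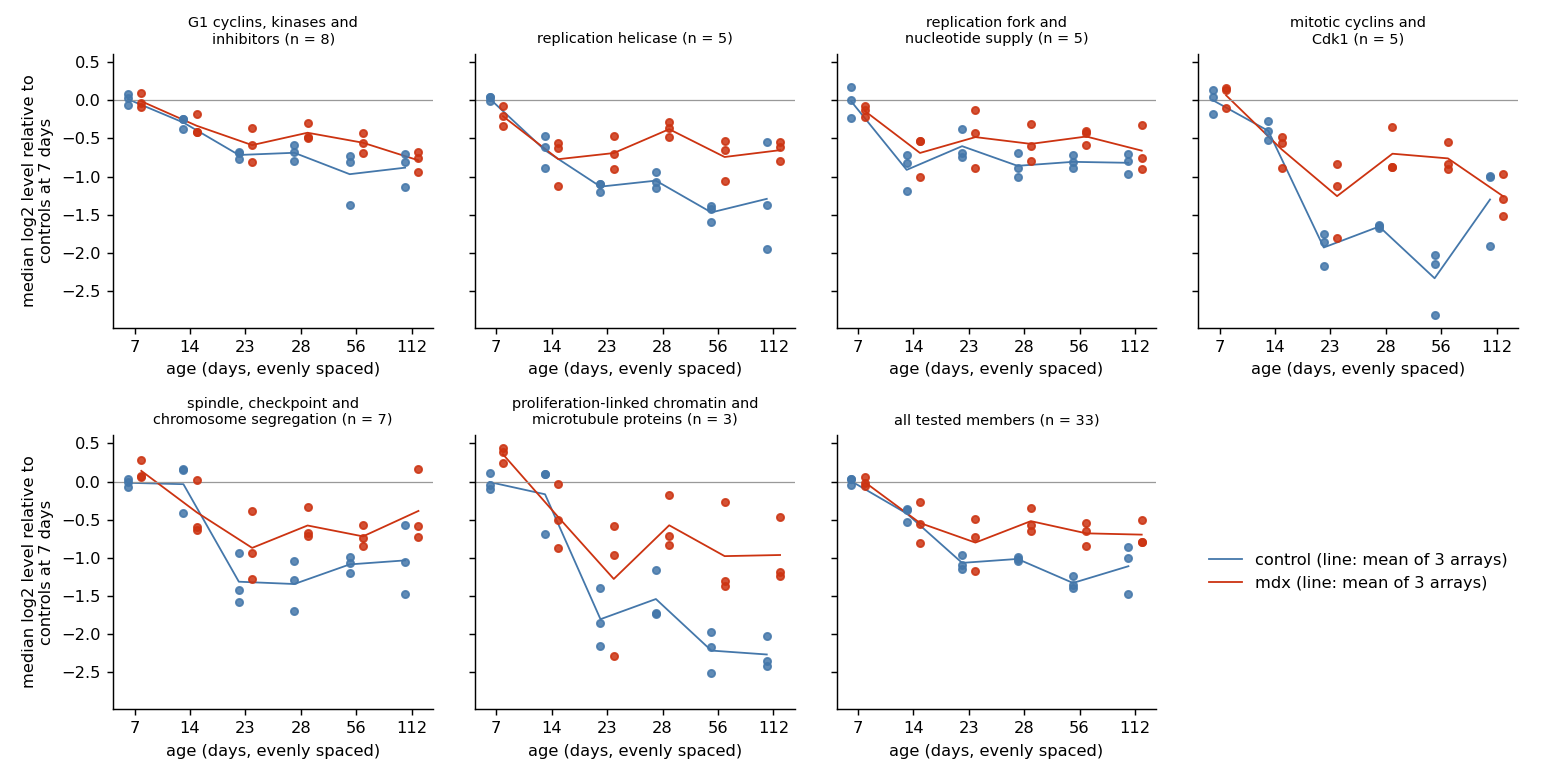
Median log2 level of the members of each role relative to the mean of controls at 7 days, on each array, against age in days (evenly spaced); points are arrays, lines join the means of 3 arrays, and n is the number of genes with 1 probe set each. From 23 to 56 days the 3 control arrays of the mitotic cyclin and Cdk1 genes lie between -2.82 and -1.64, and the mdx arrays between -1.80 and -0.35.

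**Figure D2:**
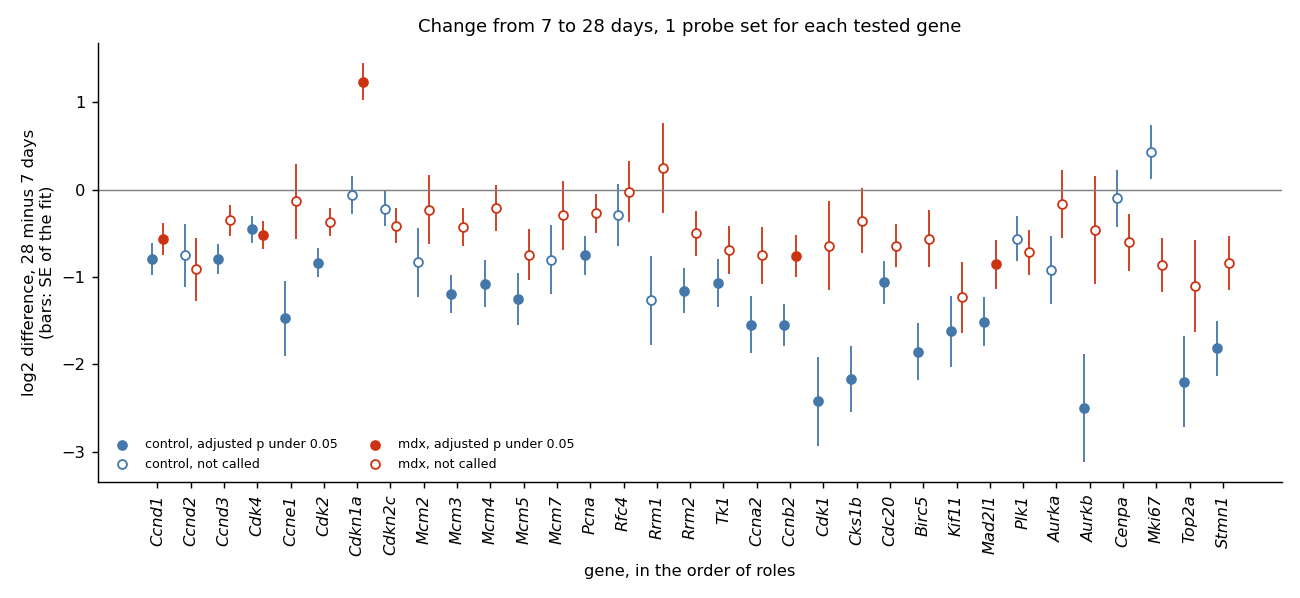
Log2 difference between 28 and 7 days in controls (blue) and mdx (red) for 1 probe set of each tested gene, ordered by role, with the SE of the fit as bars; filled points passed an adjusted p of 0.05. In controls 22 of the 33 genes fell, while in mdx 4 fell and Cdkn1a rose by 1.24.

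Between genotypes, the members differed little in the first 2 weeks and were higher in mdx later, most widely at 56 days. At 7 days 0 of 42 probe sets were called in either direction, beside 0.0538% of all tested probe sets higher and 0.409% lower; 3 members had an unadjusted p under 0.05. At 14 days 1 was higher (2.38%) and 0 lower, beside 0.161% and 0.0323%. At 23 days 2 were higher (4.76%) and 0 lower, beside 2.68% and 0.807%, a member share near the background. The arrays of mdx at 23 days were unlike: their median log2 level over the 33 genes was -0.50, -1.18 and -0.73, and replicate 2 lay at the level of the controls (-1.14 to -0.96). Without it neither of the 2 calls was left (limma, adjusted p = 0.28 for Cdkn1a and 0.133 for Plk1). At 28 days 4 were higher (9.52%) and 0 lower, beside 2.42% and 0.538%.

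At 56 days 16 of the 42 probe sets, those of 14 genes, were higher in mdx (38.1%) and 1 was lower (2.38%), beside 9.27% and 7.38% of all tested probe sets. At 112 days 6 were higher (14.3%) and 0 lower, beside 7.65% and 4.52%. Over the mean of the 6 ages 21 were higher (50%) and 0 lower, beside 10.4% and 7.41%. The median over genes was -0.01, -0.18, 0.32, 0.60, 0.65 and 0.36 at the 6 ages in order, while the median of all probe sets was 0.15 at 56 days and within 0.04 of 0 at the others. The F test of whether the difference between genotypes depended on age passed for 9 of 42 probe sets (21.4%), beside 8.93% of all.

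Quantile normalization moved the median of all probe sets at 56 days from 0.15 to 0.01 and that of the member probe sets from 0.64 to 0.48; it moved the median of all probe sets from 0.10 to -0.01 for mdx from 28 to 112 days. The count at 56 days was 10 when the fit used those 6 arrays alone, at 112 days 1 on that fit, and over the mean of ages 9 without the albumin-rich arrays. Without those arrays 13 probe sets were called at 56 days and 5 at 112 days, and 3 of the 6 calls at 112 days (Mcm4, Birc5 and Kif11) were lost. At 28 days leaving out any of the 6 arrays left 1 or 2 of the 4 calls.

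**Figure D3:**
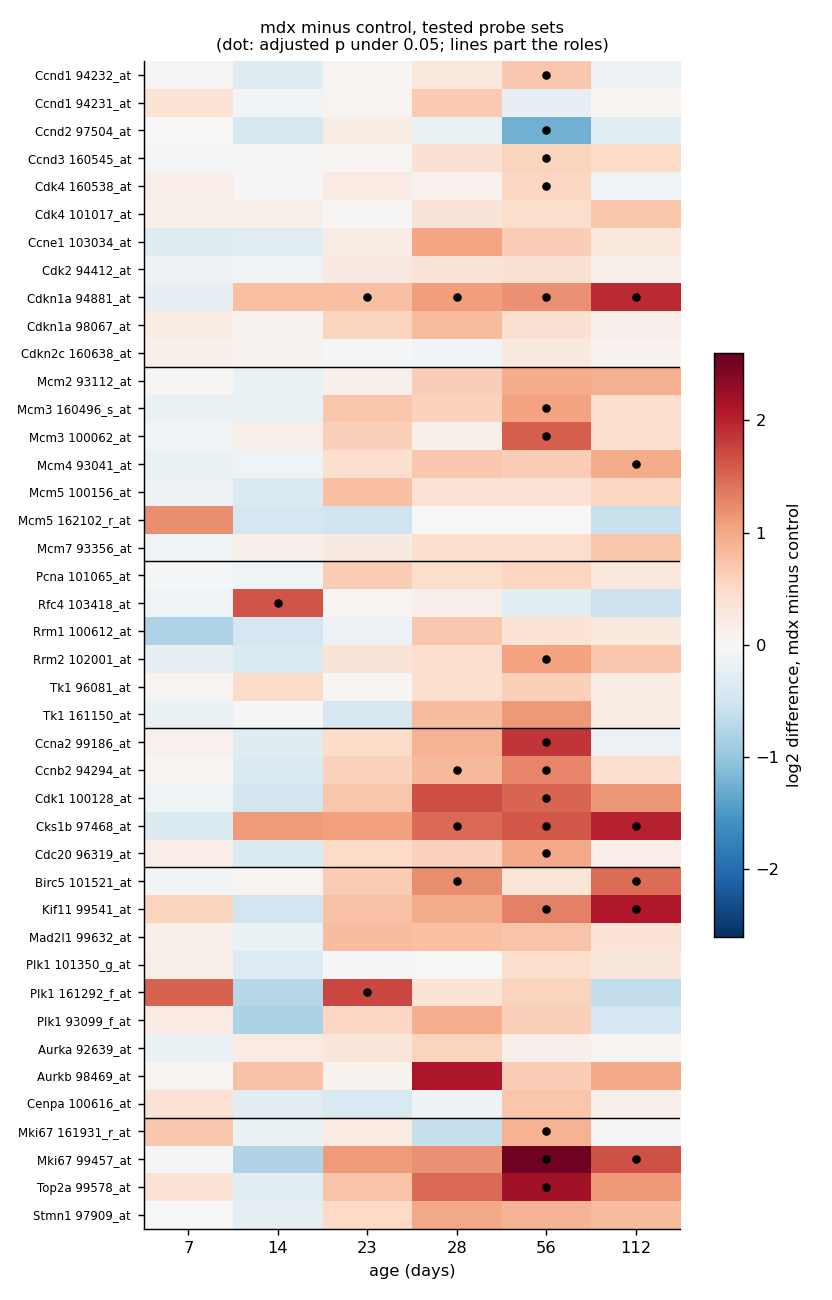
Log2 difference of mdx minus control for each of the 42 tested member probe sets (rows, named by gene and probe set, grouped by role) at the 6 ages (columns, in days); red is higher in mdx, blue lower, and dots mark an adjusted p under 0.05. The column at 56 days holds 17 dots, 16 of them higher in mdx and Ccnd2 lower.

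Markers of other cells also differed between genotypes, and some of their sums were already apart at 7 or 14 days. The summed signal of the 11 measured of 12 macrophage markers was 14485 to 24428 on all control arrays and 45875 to 98803 on mdx arrays from 23 days on, and of its 10 tested genes 10, 8, 10 and 9 were higher in mdx at 23, 28, 56 and 112 days. At 14 days this sum was already apart, at 22119 to 28953 in mdx beside 17185 to 19456 in controls, with 2 genes called. The 7 markers of regenerating fibres, which include the embryonic and perinatal myosins Myh3 and Myh8, summed, from 23 days on, to 19338 to 35424 on control arrays and 51852 to 91723 on mdx arrays, and 6 of 7 were higher at each of those ages. At 14 days their sum was also apart, at 31744 to 35149 in mdx beside 27518 to 30437 in controls. At 7 days it was lower in mdx without overlap, at 50536 to 64506 beside 66530 to 70506. At 7 and 14 days 0 of the 7 genes were called. The 7 measured of 8 markers of muscle stem cells and myoblasts, among them Myod1 and Myf5, summed to 8266 to 12534 on control arrays, against 13727 to 22314 on mdx arrays, from 23 days on. Of the 9 fibroblast markers 5 were higher in mdx at 56 days and 6 at 112 days, when they summed to 130372 to 158206 in mdx beside 63101 to 75883 in controls. No measured marker was listed at 0 on any array. The part of these cells in the differences of the members was not tested.

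Liver markers, 7 of 8 measured, ran from 729 to 78663 over all arrays and those of red cell precursors, 10 of 14, from 29907 to 120536; with ages pooled, the ranges of the genotypes overlapped. At 23 days the red cell sum was 46584 to 66807 in controls, above the 39086 to 45175 of mdx. The liver sum at 56 days ran from 1897 to 26181 on control arrays, with replicate 1 highest, and from 1315 to 1589.9 on mdx arrays, and at 112 days 1148 to 75845 and 1879.8 to 22147. The endothelial sum, 6 of 7, lay lower in mdx without overlap at 28 days, at 11379 to 12578 beside 14123 to 16487 in controls, and at 112 days, at 7949 to 9508 beside 10836 to 12159. Of its 6 genes 3 passed as lower at 112 days, 0 at 28 days and 2 at 56 days (Vwf, -0.97, adjusted p = 0.000918, and Tek, -0.74, 0.0101), when the sums overlapped. At 56 days the sum of the 9 measured of 11 T and B cell markers was 5953 to 6247 in mdx, under the 7430.1 to 9369.5 of controls, and 0 of its 5 tested genes passed. At 23 days that sum was the other way round, at 3266 to 5409 in mdx and 1935 to 2460.4 in controls, and Jchain was called higher (1.52, adjusted p = 0.0379). Of 10 mature fibre markers 2 were lower in mdx at 56 days, Myh7 and Pygm, with a median of -0.66, and their sum was lower without overlap at 23 days, at 171201 to 192137 beside 208914 to 243887. Whether these moved the members was not tested.

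**Figure D4:**
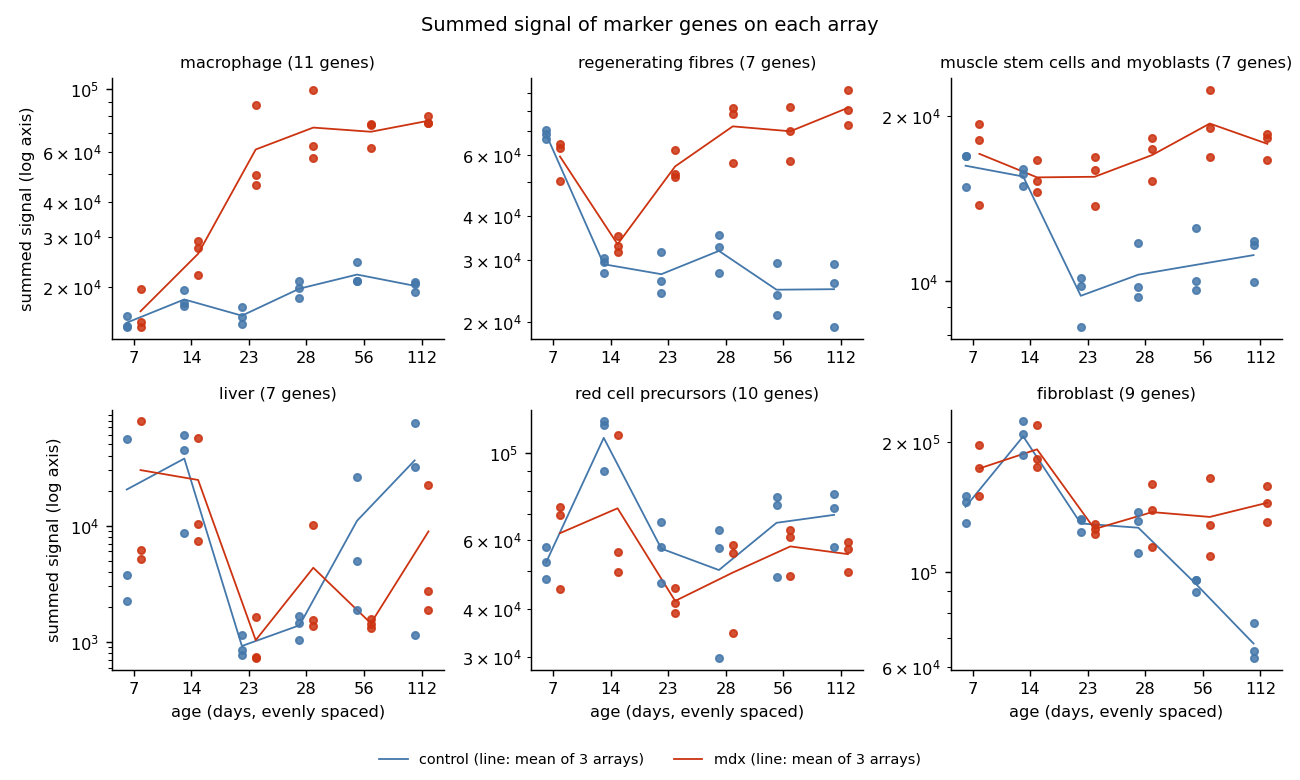
Summed signal (log axis) of marker genes of 6 cell types on each array against age in days (evenly spaced); points are arrays and lines join means of 3 arrays, with control in blue and mdx in red. The macrophage, regenerating fibre and myoblast sums of mdx lie above all control arrays of the same age from 23 days on, and the liver sum spreads from 729 to 78663 within the genotypes.

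Among the G1 genes, the D-type cyclins went different ways. Cyclin D1 (Ccnd1, 94232_at) read 3738, 3846 and 3057 in controls at 7 days and 1765, 2248 and 2072 at 28 days, and the lowest array at 7 days lay above the highest at 28 days. It fell by 0.80 ± 0.18 (SE, adjusted p = 0.0022). At 56 days it read 1399, 1248 and 1322 in controls against 2829.5, 1682 and 2146 in mdx, with no overlap, a difference of 0.70 ± 0.18 (SE, adjusted p = 0.00711); it missed the threshold when mdx replicate 1 was left out (adjusted p = 0.0819). The groups overlapped at 112 days, at 2626, 1937 and 1771 in controls against 1601, 2125 and 2038 in mdx.

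Cyclin D2 (Ccnd2, 97504_at) was the member that was lower in mdx at 56 days. It read 377, 341 and 128 in controls against 87, 88.8 and 94.7 in mdx, so every mdx array was under every control array, by -1.25 ± 0.36 (SE, adjusted p = 0.0155). Control replicate 3 was well under the other 2. Every array of 56 days but control replicate 1 lay under 374.5, the level of the filter on dim probe sets. Leaving out control replicate 1 (adjusted p = 0.106) or 2 (0.0877) ended the call, as did leaving out the albumin-rich arrays (0.0771). At 112 days both genotypes were low, at 101, 61.5 and 172 and 51.4, 60.8 and 155, and overlapped. Between 28 and 112 days cyclin D2 fell in controls, by 1.55 ± 0.36 (adjusted p = 0.00319), and in mdx, by 1.65 ± 0.36 (0.00356).

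Cyclin D3 (Ccnd3, 160545_at), which muscle cells also make as they differentiate, read 5647, 6723 and 6263 in controls at 7 days and 4034, 3187 and 3476 at 28 days, and fell by 0.80 ± 0.17 (adjusted p = 0.00142). At 56 days it was 2863, 1855 and 2254 in controls against 4015, 3099.8 and 3280.1 in mdx, 0.58 ± 0.17 (SE, adjusted p = 0.0192), without overlap; leaving out control replicate 2 (adjusted p = 0.14) or mdx replicate 1 (0.113) ended that call. Cdk4 (160538_at), the kinase partner of these cyclins, was 4175, 4811 and 3823 and 5625, 6579 and 6297 at 56 days, 0.53 ± 0.16 (SE, adjusted p = 0.0185). That call was lost without control replicate 1 or 3 or mdx replicate 2 (adjusted p from 0.0594 to 0.0725) and without the albumin-rich array (0.0555). Its fall from 7 to 28 days in controls, of 0.46 ± 0.16 (adjusted p = 0.0475), was lost when any of the 6 arrays was left out (0.0608 to 0.227) and without the albumin-rich arrays (0.0832).

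Cyclin E1 (Ccne1, 103034_at), which works with Cdk2 at the entry to S phase, read 1567, 1527 and 1405 in controls at 7 days and 395, 721 and 489 at 28 days, and fell by 1.47 ± 0.43 (adjusted p = 0.0167). The call was lost without control replicate 1 at 7 days or replicate 1 or 3 at 28 days (adjusted p from 0.0547 to 0.0898). At 28 days mdx read 1021, 958 and 1310.5, above every control array, with a difference of 1.02 that did not pass (adjusted p = 0.274). Cdk2 (94412_at) fell in controls by 0.84 ± 0.16 (adjusted p = 0.000435) and was not called between genotypes at any age. The inhibitor Cdkn2c was called in none of the comparisons, with differences between genotypes from -0.07 to 0.24.

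Cdkn1a, the p21 inhibitor that stops the G1 and S phase kinases, was among the 11 of 33 genes whose brightest probe set was not called lower in controls between 7 and 28 days (-0.065, adjusted p = 0.889) and rose in mdx over that span. Its probe set 94881_at read 1535, 1397 and 1639 in controls against 1309, 1187 and 1415 in mdx at 7 days, where the groups overlapped. At 14 days it read 1333, 1241 and 1155 in controls against 2503, 2064 and 1929 in mdx, without overlap, but the difference of 0.78 was not called (adjusted p = 0.205). At 23 days it read 1505, 2150.3 and 1898 and 3539, 4589 and 1993. Mdx replicate 2 was the highest of the 6 and mdx replicate 3 fell within the controls.

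From 28 days on every mdx array was above every control array. Cdkn1a read 1310.1, 1591 and 1467 in controls against 2825, 2834 and 3741 in mdx at 28 days, 1479, 1892 and 1639.7 and 3439, 3968 and 4044 at 56 days, and 648, 1048 and 1330.5 and 3627, 4262 and 3626 at 112 days. The mdx arrays thus stayed at a raised level while the controls were lowest at 112 days. The differences were 0.79 ± 0.22 (SE, adjusted p = 0.0336) at 23 days, 1.08 ± 0.22 (SE, adjusted p = 0.00195) at 28 days, 1.18 ± 0.22 (SE, adjusted p = 0.000271) at 56 days and 1.95 ± 0.22 (SE, adjusted p = 9.6e-08) at 112 days. The call at 23 days ended when control replicate 1 or 3 or mdx replicate 1 or 2 was left out (adjusted p from 0.0832 to 0.28) and after quantile normalization (0.12); those at 28, 56 and 112 days held without any 1 array. Within mdx it rose by 1.24 ± 0.22 from 7 to 28 days (adjusted p = 0.000174), and the F test of age dependence passed (adjusted p = 0.000499). The other Cdkn1a probe set, 98067_at, was called over the mean of ages only, at 0.37 ± 0.11 (adjusted p = 0.0195) beside 0.93 for 94881_at.

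**Figure D5:**
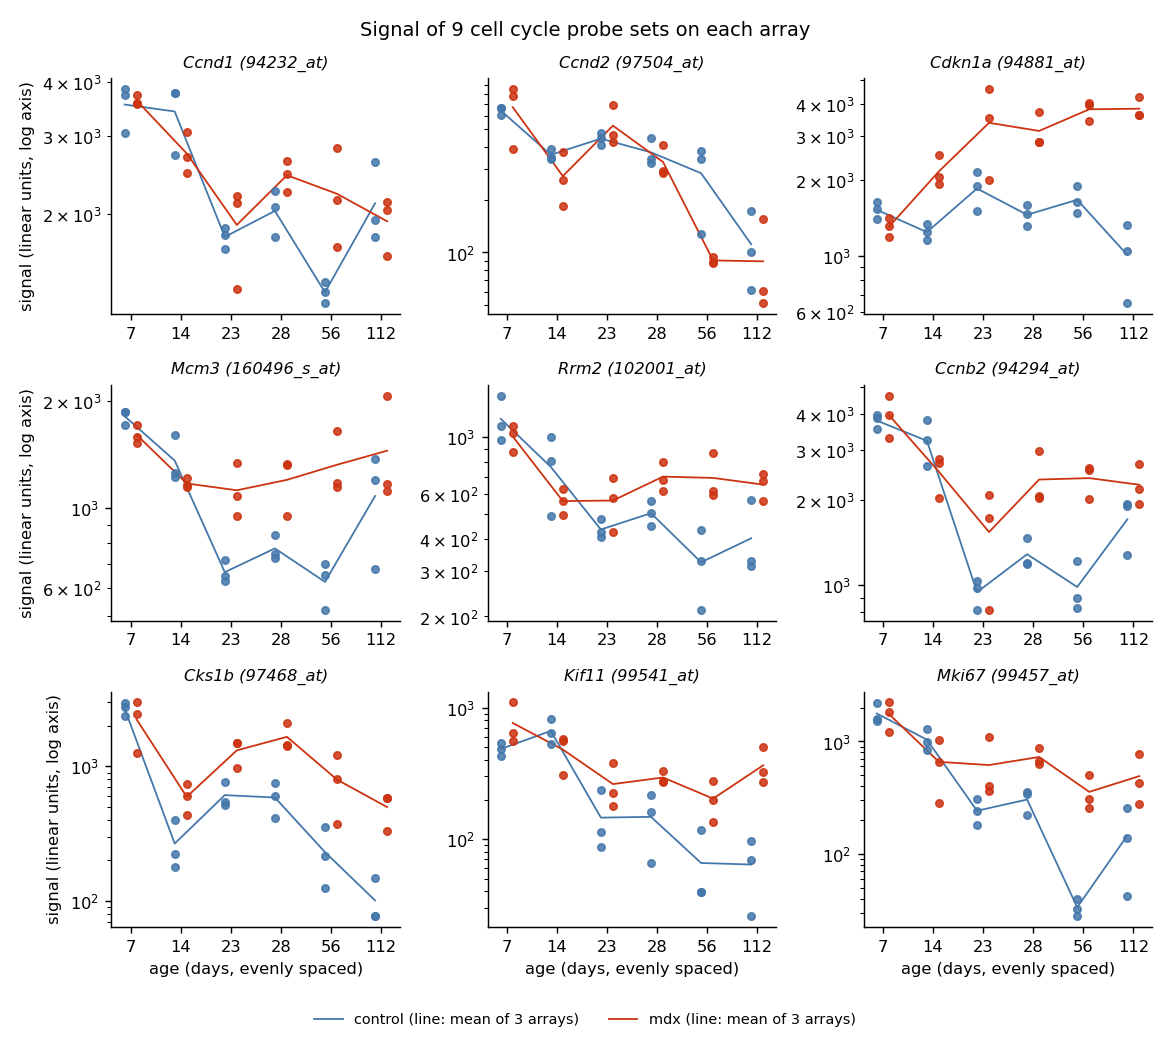
Signal (log axis, linear intensity units) of 9 member probe sets on each array against age in days (evenly spaced), controls in blue and mdx in red, lines joining means of 3 arrays. Where a gene had several tested probe sets, the one with the lowest p for mdx against control at 56 days is shown. Ccnb2, Cks1b and Mki67 (99457_at) drop in controls after 7 or 14 days while mdx stays above them at 28 and 56 days. The brighter Mki67 probe set, 161931_r_at, is not shown and did not fall in controls from 7 to 28 days (0.43). Cdkn1a climbs in mdx from 14 days, and Ccnd2 at 56 days is the panel in which mdx lies under the controls.

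The Mcm proteins form the ring-shaped helicase that is loaded on origins in G1 and opens DNA in S phase. In controls 3 of the 5 tested subunits fell between 7 and 28 days, Mcm3, Mcm4 and Mcm5. Mcm3 (160496_s_at) read 1857, 1713 and 1859 in controls at 7 days and 726, 845 and 746 at 28 days, and fell by 1.20 ± 0.22 (adjusted p = 0.000178). In mdx it read 1584, 1710.3 and 1521 at 7 days and 949, 1328 and 1325 at 28 days, where every mdx array lay above every control array. At 56 days it was 519.6, 651 and 697 in controls against 1644, 1149 and 1177 in mdx, again without overlap.

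The difference of Mcm3 at 56 days was 1.04 ± 0.22 (SE, adjusted p = 0.00122), and its second probe set 100062_at gave 1.56 ± 0.37 (SE, adjusted p = 0.00361). At 112 days control replicates 1 and 2 had come up to the mdx level, at 1201, 1369.8 and 676 beside 1114, 1168 and 2065, and neither probe set was called. The F test passed for 160496_s_at (adjusted p = 0.0246). Mcm4 (93041_at) was called at 112 days, where controls read 535, 198 and 565 and mdx 739, 872 and 786, 0.96 ± 0.27 (SE, adjusted p = 0.0143). Control replicate 2, at 198, was far under the other 2. Without it the difference was 0.51 (adjusted p = 0.2), without mdx replicate 2 it was 0.90 (0.0581), and without all albumin-rich arrays 0.49 (0.357).

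Mcm5 (100156_at) read 2875, 2862 and 2714 in controls at 7 days and 1504, 937 and 1122 at 28 days and fell by 1.25 ± 0.30 (adjusted p = 0.00324). It was not called between genotypes. Mcm2 and Mcm7 were not called in any of the comparisons, with 0.96 and 0.46 at 56 days. For Mcm2 all 3 mdx arrays at 56 days, at 763, 845 and 506, were above the controls, at 361, 393 and 271. The dim Mcm6 reached at most 359.9 on any of the 36 arrays.

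At the replication fork and in nucleotide supply, 3 of 5 genes fell in controls between 7 and 28 days: the sliding clamp Pcna, the small ribonucleotide reductase subunit Rrm2 and thymidine kinase Tk1. Rrm2 (102001_at), which makes deoxynucleotides and is high in S phase, read 1108, 975 and 1448 in controls at 7 days and 562, 504 and 449 at 28 days, and fell by 1.16 ± 0.26 (adjusted p = 0.00179). At 56 days it read 330.3, 212 and 433 in controls against 868, 596 and 615 in mdx, without overlap, 1.05 ± 0.26 (SE, adjusted p = 0.00484). Without control replicate 2 that was 0.80 (adjusted p = 0.0568). Its F test passed at an adjusted p of 0.0477.

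Pcna (101065_at) fell in controls by 0.75 ± 0.23 (adjusted p = 0.0207), a call lost without control replicate 1 or 3 at 7 days or 1 or 3 at 28 days (0.052 to 0.126), or without the albumin-rich array (0.0736). In mdx it was called over the mean of the 6 ages, at 0.30 ± 0.092 (adjusted p = 0.0193). The clamp loader subunit Rfc4 (103418_at) had an unlike course. It read 76.2, 75.8 and 47.1 in controls against 365, 119 and 438 in mdx at 14 days, while controls read 421, 343 and 465 at 7 days and 352, 284 and 313 at 23 days. The 3 control arrays of 14 days thus stood under all other control arrays. They and mdx replicates 1 and 2 of 14 days lay under 374.5, the level of the filter on dim probe sets. The difference of 1.65 ± 0.35 (SE, adjusted p = 0.0369) was lost without control replicates 1, 2 or 3 or mdx replicates 1 or 3 (adjusted p from 0.0716 to 0.249) and without the albumin-rich arrays (1.18, 0.525), which left 1 control array at that age. Rrm1 and Tk1 were not called between genotypes.

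Tk1 (96081_at) salvages thymidine for DNA and fell in controls by 1.07 ± 0.28 between 7 and 28 days (adjusted p = 0.00672). Its dimmer probe set 161150_at did not (-0.036) and spread from 124 to 566 among the controls of 7 days. Dimmer probe sets of genes already given were Ccnd1 94231_at, Cdk4 101017_at and Mcm5 162102_r_at. Cdk4 101017_at was called over the mean of ages, at 0.31 ± 0.10 (SE, adjusted p = 0.0323). Ccnd3 and Aurkb were also higher over that mean, Ccnd3 by 0.26 and Aurkb by 0.78. Mcm5 162102_r_at differed by 1.21 at 7 days, unlike the -0.13 of the brighter Mcm5 probe set, and neither was called. The dim probe sets left untested had their highest array at 727.3 for Cdk2, 404.4 for Rrm1 and 171.5 for Stmn1, and those of Bub1 at 336.1, 151.1 and 62.8.

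The mitotic cyclins with Cdk1 and their partners were the role in which every tested gene was called at 56 days, over the mean of ages, and in the fall of controls from 7 to 28 days. At 56 days the median difference over these 5 genes was 1.51, against 0.64 for the helicase subunits and 0.56 for the G1 genes; differences between roles were not tested. Cyclin B2 (Ccnb2, 94294_at), which activates Cdk1 for mitosis, read 3543, 3977 and 3889.9 in controls at 7 days, 1188, 1199.6 and 1462 at 28 days and 902, 830.5 and 1217 at 56 days. In mdx it read 3979, 3311 and 4657 at 7 days, 2031, 2053 and 2980.3 at 28 days and 2579, 2554 and 2016 at 56 days. The genotypes overlapped at 7 days and were apart at 28 and 56 days.

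Cyclin B2 fell in controls by 1.55 ± 0.24 between 7 and 28 days (adjusted p = 1.65e-05) and in mdx by 0.76 ± 0.24 (0.0386). It was higher in mdx by 0.84 ± 0.24 (SE, adjusted p = 0.0435) at 28 days and by 1.26 ± 0.24 (SE, adjusted p = 0.000365) at 56 days. The 28-day call was lost when any of the 6 arrays was left out (adjusted p from 0.0529 to 0.307), and the 56-day call held in each. Without the albumin-rich arrays, none of which is of 28 days, the 28-day difference stayed at 0.84 but was no longer called. At 23 days mdx read 2077, 816 and 1717, with replicate 2 at the control level of 817, 1034 and 976. At 112 days the groups overlapped, at 1936, 1894 and 1279.8 and 1925, 2173 and 2674. The F test passed (adjusted p = 0.0148).

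Cyclin A2 (Ccna2, 99186_at), which serves in S phase and at the entry to mitosis, read 2497, 3293 and 2450.3 in controls at 14 days and 729, 915 and 698 at 28 days, so every 28-day array was under every 14-day array. At 56 days it read 583, 729 and 289 in controls against 2822, 1292 and 1845 in mdx, 1.85 ± 0.33 (SE, adjusted p = 0.000177). No array was shared between the ranges. At 112 days it read 1327, 1751 and 594 and 1397, 928 and 789.5, with the groups overlapping and a difference of -0.14. The F test passed (adjusted p = 0.0123).

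Cdk1 (100128_at) read 2076, 1983 and 2146 in controls at 7 days and 259, 284 and 622 at 28 days, and fell by 2.42 ± 0.51 (adjusted p = 0.000958). At 28 days mdx read 1222, 1111 and 1314, above every control array, with a difference of 1.67 that did not pass (adjusted p = 0.0733). At 56 days controls read 48.4, 114 and 86.2 and mdx 555, 303 and 131. All of these but mdx replicate 1 lay under 374.5, the level of the filter on dim probe sets. The mdx arrays were all higher but spread widely, and the difference was 1.51 ± 0.51 (SE, adjusted p = 0.039). That call was lost without any of control replicates 1 to 3 or mdx replicates 1 or 2 (adjusted p from 0.0521 to 0.22), without the albumin-rich array (0.075), with a pseudocount of 64 (0.0537) and after quantile normalization (0.149).

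Cks1b (97468_at), a small protein that binds Cdk1 and Cdk2, was higher in mdx at 28, 56 and 112 days. It read 2369, 2948 and 2751 in controls at 7 days, and already 178, 222 and 401 at 14 days. At 28 days controls read 412, 748 and 600.0 and mdx 1442, 1425 and 2104, at 56 days 125, 214 and 352 and 1212, 806 and 372, and at 112 days 76.6, 76.8 and 149 and 578, 586 and 330.1. The groups did not overlap at any of those ages, and both were lower at 112 than at 28 days. At 56 and 112 days all controls and mdx replicate 3 lay under 374.5, the level of the filter on dim probe sets.

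The differences of Cks1b were 1.46 ± 0.38 (SE, adjusted p = 0.0233) at 28 days, 1.61 ± 0.38 (SE, adjusted p = 0.0034) at 56 days and 2.00 ± 0.38 (SE, adjusted p = 0.000374) at 112 days. The first was lost without control replicate 1 or 3 or mdx replicate 3 (adjusted p from 0.0682 to 0.173). Those at 56 and 112 days held without any 1 array, but were lost when only the 6 compared arrays were fitted (0.0627 and 0.0501). Cdc20 (96319_at), the activator of the ubiquitin ligase that ends mitosis, read 751, 704 and 1069 in controls against 2134, 1461 and 1504 in mdx at 56 days, 0.99 ± 0.25 (SE, adjusted p = 0.0054). It fell in controls by 1.06 ± 0.25 between 7 and 28 days (adjusted p = 0.00268).

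The stretch of 300 bases around each start in the RefSeq promoter table (GRCm38.p6, 250 before and 50 after) was searched on both strands for CCAAT (the box bound by the factor NF-Y), for TTTGAA or TTCGAA (the core of the cell cycle genes homology region, CHR), and for TTCCCGC or TTGGCGC (letters of E2F sites). Promoters matched 29 of the 35 members, 33 promoters in all, and Aurkb, Stmn1, Ccnd1, Mcm4, Ccna2 and Ccnd2 had no entry. Of the 11 promoters of mitotic cyclin, Cdk1, spindle and segregation members, 9 held both CCAAT and CHR letters (81.8%), beside 7.52% of all 32851 promoters. CCAAT letters, with or without CHR, were in 37.4% of all, and CHR letters, with or without CCAAT, in 19.2%. Of the 11 promoters of helicase, fork and nucleotide members, 7 held E2F letters (63.6%), beside 6.81% of all, 9 held CCAAT and 2 held CHR. Of the 9 promoters of G1 members 3 held CCAAT, 2 held E2F and 0 held CHR letters. An E2F match overlapped a CCAAT match in 1 of the 33, at Mcm7. A match describes the letters only.

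The 150 bases before the start are printed for 4 mitotic and 2 helicase members that were called. The 6 were chosen after their values were seen. The printed stretches of Ccnb2 and Mcm3 each hold 3 CCAAT matches and no CHR or E2F letters. They lie at chr9:70421555-70421704 (- strand) for Ccnb2, chr10:69352913-69353062 (- strand) for Cdk1, chr3:89418292-89418441 (- strand) for Cks1b, chr4:118437344-118437493 (- strand) for Cdc20, chr1:20820313-20820462 (- strand) for Mcm3 and chr8:75109359-75109508 (+ strand) for Mcm5, each written 5′ to 3′ on the strand of the gene. Capitals mark CCAAT, CHR and E2F letters on either strand.
Ccnb2: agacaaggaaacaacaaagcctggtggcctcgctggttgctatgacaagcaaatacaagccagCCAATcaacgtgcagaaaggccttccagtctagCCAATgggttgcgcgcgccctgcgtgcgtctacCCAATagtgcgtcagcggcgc
Cdk1: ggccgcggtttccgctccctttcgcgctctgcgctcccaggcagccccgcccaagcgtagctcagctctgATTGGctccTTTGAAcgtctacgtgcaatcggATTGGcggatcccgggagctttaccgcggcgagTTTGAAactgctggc
Cks1b: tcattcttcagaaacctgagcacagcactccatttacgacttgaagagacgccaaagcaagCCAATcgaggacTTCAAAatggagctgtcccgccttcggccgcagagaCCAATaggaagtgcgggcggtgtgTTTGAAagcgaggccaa
Cdc20: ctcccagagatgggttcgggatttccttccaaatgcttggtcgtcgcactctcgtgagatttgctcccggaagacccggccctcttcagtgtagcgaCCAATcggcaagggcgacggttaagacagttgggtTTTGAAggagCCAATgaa
Mcm3: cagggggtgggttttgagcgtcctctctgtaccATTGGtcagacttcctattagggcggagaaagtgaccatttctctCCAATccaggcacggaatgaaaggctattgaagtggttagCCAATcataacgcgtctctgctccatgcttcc
Mcm5: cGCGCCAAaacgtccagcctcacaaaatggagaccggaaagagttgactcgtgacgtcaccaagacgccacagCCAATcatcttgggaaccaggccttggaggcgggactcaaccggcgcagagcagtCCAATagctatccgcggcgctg
In Cdk1, Cks1b and Cdc20 a CHR match began 15, 17 and 18 bases before the start and a CCAAT match 48, 41 and 53 bases before it. Ccnb2 had CCAAT matches 87, 54 and 21 bases before the start, with its CHR letters 167 bases before it and from base 5 of the transcript, outside the printed stretch. Mcm3 and Mcm5 had CCAAT but no CHR letters. The E2F letters of Mcm3 lay from bases 20, 40 and 43 after the start. The matches from bases 40 and 43 overlap and are on opposite strands, so they are not separate stretches. The E2F letters of Mcm5 lay 164 and 149 bases before the start.

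Of the 7 tested spindle, checkpoint and segregation genes, Birc5, Kif11, Mad2l1 and Aurkb fell in controls between 7 and 28 days by their brightest probe set, as did 1 probe set of Plk1; the fall of Kif11 missed the threshold when control replicate 3 at 28 days was left out (adjusted p = 0.0662). Birc5 (survivin, 101521_at), a subunit of the complex that corrects chromosome attachment, read 983, 1132 and 1159 in controls at 7 days and 404, 193 and 269.6 at 28 days, where mdx read 648, 653 and 761. At 112 days it read 324, 122 and 115 in controls against 456, 526 and 568 in mdx. It was higher in mdx by 1.22 ± 0.33 (SE, adjusted p = 0.0316) at 28 days and 1.45 ± 0.33 (SE, adjusted p = 0.00245) at 112 days, and at 56 days, with 209, 199 and 400.0 and 290.2, 389.7 and 305, the groups overlapped.

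The 28-day call of Birc5 was lost without any of control replicates 2 and 3 and mdx replicates 1 to 3 (adjusted p from 0.0674 to 0.192). Its 112-day difference was 0.60 (adjusted p = 0.546) without the albumin-rich arrays, which leave control replicate 1, the highest of the controls. The kinesin Kif11 (99541_at), the motor that pushes spindle poles apart, read 39.6, 39.9 and 118 in controls against 277, 199 and 134 in mdx at 56 days, and 96.5, 69.9 and 25.8 and 269.7, 322 and 502 at 112 days. At both ages every mdx array was higher, by 1.31 ± 0.41 (SE, adjusted p = 0.0246) and 2.08 ± 0.41 (SE, adjusted p = 0.000585). These signals were dim: all arrays of 56 days lay under 374.5, the level of the filter on dim probe sets. At 112 days only mdx replicate 3 lay above it. Controls reached down to 39.6 at 56 days and 25.8 at 112 days, near or under the 32 added before log2, so no fold is given. After quantile normalization the 56-day difference was 0.945 and was not called (adjusted p = 0.091). The call at 56 days ended when control replicate 1 or 2 or mdx replicate 1 or 2 was left out (adjusted p from 0.0571 to 0.123) or the albumin-rich array was (0.114), and the 112-day call without the albumin-rich arrays (1.64, adjusted p = 0.128).

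The kinase Aurkb (98469_at), which works with Birc5, read 1078, 1128 and 1091 in controls at 7 days and 154, 116 and 259.5 at 28 days, and fell by 2.50 ± 0.62 (adjusted p = 0.00504). At 28 days mdx read 646, 756 and 1153, above every control array, and the difference of 2.10 missed the threshold (adjusted p = 0.0619). Mad2l1 (99632_at), a spindle checkpoint protein, fell in controls by 1.51 ± 0.28 (adjusted p = 0.000214) and in mdx by 0.86 ± 0.28 (0.0496), and was higher in mdx over the mean of ages by 0.44 ± 0.11 (0.00541). Aurka and the centromeric histone Cenpa were called in none of the comparisons. The 3 dim probe sets of Bub1 were not tested; in the brightest, 104097_at, controls at 56 days read 11.9, 19.4 and 19.7 and mdx 152, 95.7 and 96.1.

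The 3 probe sets of the mitotic kinase Plk1 did not read alike; in the array maker's naming, the suffix f marks a probe set that can also read related sequences. The probe set 161292_f_at read 93.8, 136 and 141 in controls against 485, 552 and 413 in mdx at 23 days, 1.73 ± 0.48 (SE, adjusted p = 0.0386), but in controls it also read 1355, 1108 and 678 at 14 days and 1646, 768 and 917 at 112 days. That call was lost without any of control replicates 1 to 3 or mdx replicates 1 or 2 (adjusted p from 0.0851 to 0.167). At 23 days the others gave -0.049 and 0.54 and were not called. In controls from 7 to 28 days 93099_f_at fell by 1.22 ± 0.34 (adjusted p = 0.011), lost without control replicate 2 at 28 days (0.0693).

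Mki67, Top2a and Stmn1 are widely used marks of dividing cells: Ki-67 coats mitotic chromosomes, topoisomerase II alpha untangles sister DNA, and stathmin loosens microtubules. Mki67 (99457_at) read 1596, 1516 and 2202 in controls at 7 days, 340.0, 354 and 221 at 28 days and 32.8, 27.9 and 40.2 at 56 days. In mdx it read 1205, 2229 and 1831, 672, 636 and 876 and 502, 257 and 311 at the same ages. The 3 control arrays at 56 days were the lowest of all groups. There the controls of Mki67 and Top2a were near the 32 that is added before log2, which makes the log2 differences understate the ratio, so no fold is given. It was higher in mdx by 2.52 ± 0.44 (SE, adjusted p = 0.000159) at 56 days, where the means were 33.6 in controls and 356.7 in mdx, and by 1.66 ± 0.44 (SE, adjusted p = 0.00988) at 112 days, where controls read 42.1, 138 and 258 and mdx 425, 278 and 774.

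For 99457_at the call at 112 days ended when mdx replicate 3 (adjusted p = 0.0858) or control replicate 1 (0.11) was left out. The other Mki67 probe set, 161931_r_at, is brighter and had another course: it did not fall in controls between 7 and 28 days (0.43, adjusted p = 0.412) and was called at 56 days, at 0.91 ± 0.31 (SE, adjusted p = 0.0421), a call lost without any of control replicates 1 or 2 or the 3 mdx arrays (0.0573 to 0.184) and without the albumin-rich array (0.159). Top2a (99578_at) read 639, 735 and 654 in controls at 7 days, 28.9, 41.5 and 52.2 at 56 days and, in mdx, 255, 556 and 178 at 56 days. The difference there was 2.18 ± 0.52 (SE, adjusted p = 0.00398).

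Stmn1 (97909_at) read 4485, 4754 and 5188 in controls at 7 days, 1433, 1414 and 1187 at 28 days, then 602, 909.7 and 868 at 112 days, and fell by 1.82 ± 0.31 from 7 to 28 days (adjusted p = 9.05e-05). In mdx it read 2680.5, 2914 and 2437 at 28 days, then 1631, 2217 and 1839 at 56 days. At both ages the mdx arrays lay above the controls, with differences of 0.98 (adjusted p = 0.0931) and 0.88 (0.0506) that did not pass. Over the mean of ages it was higher in mdx by 0.49 ± 0.13 (0.00606). At 23 days mdx replicate 2 stood under the other 2, at 3390.3, 959.6 and 1717, as it did for cyclin B2.

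Other genes of the same pathways were read from lists that hold none of the members. Of 32 tested genes of G2 and mitosis, 15 were higher in mdx at 56 days and 9 at 112 days and 0 lower. Of all tested probe sets 9.27% and 7.65% were higher at those ages, and 7.38% and 4.52% lower. In controls 13 of the 32 fell between 7 and 28 days with 0 rising, beside 8.07% and 6.59% of all tested probe sets. At 56 days the lowest adjusted p were those of the tubulin Tubb5 (1.32 ± 0.15 SE, adjusted p = 2.6e-07), the cytokinesis scaffold Anln (2.40 ± 0.40, 9.07e-05), the kinesin Kif22 (1.24 ± 0.21, 0.000111), the spindle protein Nusap1 (2.02 ± 0.35, 0.000169) and the midzone protein Prc1 (1.75 ± 0.37, 0.00139). The median of the 32 genes at 56 days was 0.88, against 0.15 over all probe sets. Of 28 tested S phase genes, 6 were higher and 1 lower at 56 days, beside 9.27% and 7.38% of all tested probe sets, with a median of 0.42. In controls 4 of the 28 fell between 7 and 28 days (14.3%, beside 8.07% of all probe sets).

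Of those S phase genes Uhrf1, which keeps DNA methylation through replication, was higher in mdx at 23, 28, 56 and 112 days, by 1.53, 1.52, 2.02 and 1.93 (adjusted p = 0.0312, 0.0366, 0.00102 and 0.00154). Cdt1, which loads the Mcm helicase, was higher at 23 and 56 days, by 0.70 and 0.95 (0.0474 and 0.00139). Of 21 tested genes of the RB and E2F branch and G1 inhibitors, 5 were higher and 0 lower at 56 days and 5 higher and 1 lower at 112 days, beside 9.27% and 7.65% of all probe sets higher at those ages. The list's median at 56 days was 0.12, under the 0.15 of all probe sets. The inhibitor Cdkn1c (p57) was higher in mdx by 0.93 ± 0.16, 1.90 ± 0.16 and 1.73 ± 0.16 at 28, 56 and 112 days (adjusted p = 0.000216, 3.44e-10 and 1.67e-09). Unlike p21, it fell in controls between 7 and 28 days, by 1.46 ± 0.16 (adjusted p = 5.03e-08).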

How the data were processed

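Total RNA of diaphragm was read on 36 single-colour Affymetrix arrays, 12 groups of 3. Per the labels, the array maker's standard protocol was used; the scanning and summary software are not given in the sources used here. Deposited values are linear intensities, 1 per probe set and array, and the authors had already scaled them, since their mean trimmed at percentiles 2 and 98 was 1499.2 to 1499.7 on each array. They were used as deposited. The number of arrays limits the precision.

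The 66 control probe sets were left out, and a probe set was tested where it exceeded 374.5, percentile 40 of the table, on 3 or more arrays. Of the 12422 others, 10833 had 1 gene symbol in the platform annotation, 396 several and 1193 none, and no symbol needed an update. Probe sets with several symbols were not named; 2 that are shared by Tyms and another entry were set aside for that reason. limma 3.58.1 in R 4.3.3 fitted log2(value + 32) with 1 mean for each group and a variance trend (24 residual degrees of freedom), and p-values were adjusted by Benjamini-Hochberg over all 9291 tested probe sets within a comparison; 0.05 was the threshold. For counts of genes, the brightest tested probe set stood for a gene. Compared were mdx with control at each age and over the mean of ages, the dependence of that difference on age (F test), and 28 minus 7 and 112 minus 28 days within each genotype; mdx minus control at an age and the changes with age share arrays. The code was tested on simulated data.

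The members, lists, tests and alternatives were chosen with earlier results of these data known. Any member could be named, with its value on every array where it was called; of the other pathway lists, up to 5 called genes a comparison with the lowest adjusted p. Alternatives were pseudocounts of 16 and 64, no filter, quantile normalization, array weights, a replicate block, the compared arrays alone, and leaving out the albumin-rich arrays or each array in turn. Promoter sequences are from RefSeq (GRCm38.p6).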

Additional observations from a re-analysis of the deposited data

Results flagged for a closer look

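For 9 member probe sets the difference between mdx and control changed with age, by limma's F test over the 6 ages with Benjamini-Hochberg adjustment. The adjusted p was 0.000499 for Cdkn1a (94881_at), whose difference was -0.22 at 7 days and 1.95 at 112 days. It was 0.00516 for Mki67 (99457_at), with -0.77 at 14 days and 2.52 at 56 days, 0.0123 for Ccna2, with 1.85 at 56 days and -0.14 at 112 days, and 0.0148 for Ccnb2, with -0.36 at 14 days and 1.26 at 56 days. It was 0.0246 for Mcm3 (160496_s_at), 0.038 for Cks1b and 0.0477 for Rrm2, each of which was below 0 at 7 days and above 1 at 56 days. It was 0.0325 for Rfc4, which was highest in mdx relative to control at 14 days, and 0.0387 for Plk1 (161292_f_at), which was 1.54 at 7 days, -0.73 at 14 days and 1.73 at 23 days.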

How the results depend on the processing

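Single members were checked for the 30 calls of mdx against control at an age and the 24 of controls from 7 to 28 days; for the other comparisons only the counts were. Of 756 such checks under another setting, 633 kept the call, 123 kept the direction but lost the call, and 0 turned round. Counts of called member probe sets out of 42 moved as follows. At 14 days the count of 1 became 0 with a pseudocount of 64, with no filter, with the replicate block, on the arrays compared alone and without the albumin-rich arrays. At 23 days 2 became 1 with a pseudocount of 64, with no filter, with the replicate block and on the arrays compared alone, 0 after quantile normalization and 6 with array weights. At 28 days 4 became 10 with array weights, 8 on the arrays compared alone and 1 with the replicate block. On the arrays compared alone, 17 at 56 days became 10 and 6 at 112 days became 1. Without the albumin-rich arrays the 21 of the mean of ages became 9. For controls from 28 to 112 days 5 became 9 after quantile normalization and without the albumin-rich arrays, and 3 on the arrays compared alone. For mdx from 7 to 28 days 5 became 10 with array weights and 3 with no filter, with the replicate block, on the arrays compared alone and without the albumin-rich arrays, and for mdx from 28 to 112 days 7 became 2 on the arrays compared alone. The 9 age-dependent sets became 3 with the replicate block, 14 with array weights and 4 without the albumin-rich arrays. Leaving out 1 array gave 0 to 1 at 14 days, 0 to 2 at 23, 1 to 2 at 28, 12 to 18 at 56 and 5 to 8 at 112 days, 18 to 23 for the mean of ages, 6 to 11 for age dependence, 20 to 23 for controls from 7 to 28 days, 4 to 12 from 28 to 112 days, and 1 to 4 and 3 to 8 for mdx over those spans. At 7 days each setting gave 0. Where fewer arrays entered, fewer residual degrees of freedom did too; otherwise the cause of a change was not tested. Same-numbered arrays of an age correlated at -0.225 to 0.147 in their deviations from group means, and the numbers were not used as pairs in the main fit. These correlations cannot exclude a pairing, since a shared origin need not show in deviations from means of 3 arrays. The mean of ages and age dependence have no value on the arrays compared alone, since all groups enter them.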
